A study of Emberiza melanocephala with 12 samples.

Results

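The liver transcripts of 4 genes of bile acid and sterol handling, CYP7B1 (ENSTGUG00000011247), AKR1D1 (ENSTGUG00000012287), ABCC2 (ENSTGUG00000009186) and ABCG8 (ENSTGUG00000003716), were followed across seasonal state and time of day in the blackheaded bunting (Emberiza melanocephala), a night-migratory songbird. They were found in a table of 18284 zebra finch gene identifiers by the symbols that the study pairs with its called genes, and all 4 were among the 9566 genes that passed the filter on low values. RNA-seq had been made from 12 livers of wild-caught adult males held singly in cages. Livers of the photostimulated migratory (M) state came from birds that had been moved to long days and had become restless at night, and those of the photorefractory non-migratory (nM) state from birds kept on long days until their response to light had lapsed, so both groups were on long days when sampled. Each state had 6 livers, 1 at each of ZT1, ZT5, ZT9, ZT13, ZT17 and ZT21, where ZT counts hours after lights on. No bird was sampled again, so time of day and bird cannot be told apart within a state, and p-values measure the spread between single birds sampled at different times. The question was how these genes differed between the M and nM states and over the day.

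The liver disposes of cholesterol by turning it into bile acids and by pumping it into bile. In the classic pathway, as known from mammals, CYP7A1 adds the first hydroxyl group, and in the alternative pathway CYP27A1 oxidises the sterol side chain and CYP7B1 hydroxylates the oxysterol that results. AKR1D1, a steroid reductase, then reduces the sterol ring in both pathways, and it also clears steroid hormones. ABCC2 is a pump of the bile canaliculus that exports bilirubin glucuronides and other conjugated organic anions. ABCG8 forms a pump for cholesterol and plant sterols only together with its partner ABCG5. These roles come from mammals and stand here as background.

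Levels are given in FPKM (sequenced fragments scaled by transcript length and by the mapped reads of the library), and differences as log2 fold changes of FPKM + 1, M minus nM, with a standard error (SE) and an adjusted p from limma over the 9566 genes. A gene was called at an adjusted p under 0.1 and an absolute log2 fold change above 0.1. Of all genes tested, 9.32% were called, 272 higher and 620 lower in M, with a median log2 fold change of -0.08, and when libraries were scaled to equal FPKM totals the split turned to 181 higher and 114 lower. The M library of ZT17 stood apart, with FPKM summing to 6988410 against 1520194 to 2793013 in the other 11, and a median rank correlation with the rest of 0.703 against 0.895 to 0.933. The nM library of ZT13 held 428 FPKM of the muscle gene TNNT3, against at most 1.05 FPKM elsewhere, and by the study's own list of reads it is the shallowest library. Of the liver cell's own markers, ALB was listed at 0 in 4 libraries (M at ZT1, ZT5 and ZT9, nM at ZT5) and at 17300 to 39835 FPKM in the other 8, while the summed hepatocyte markers (5 of 13 with a symbol) ranged over 13721 to 48344 FPKM in M and 17718 to 101490 FPKM in nM. Summed markers of other cells overlapped between states for biliary epithelium (1 of 7 with a symbol, 13.6 to 45.8 FPKM in M and 8.08 to 36.7 in nM), myeloid cells (3 of 7, 34.8 to 91.7 in M and 28.8 to 104 in nM) and endothelium (4 of 7, 22.5 to 40.5 in M and 32.0 to 49.0 in nM), and likewise for stellate cells (6 of 8, 169 to 326 in M and 290 to 461 in nM). The hepatocyte sum includes ALB, which was not among the genes tested, and its lowest values (M ZT9 and nM ZT5) fell in libraries with ALB at 0. Its highest M value was that of M ZT17. Its highest nM value, at ZT1, held 26712 FPKM of FGB and 42162 FPKM of FGG. The range of this sum is therefore no measure of hepatocyte content by state. All 4 tested hepatocyte markers had a log2 fold change below 0 (median -0.51), as had all 4 of endothelium (median -0.42). Of the 3 myeloid markers, 2 were above 0 and 1 below, and the 1 biliary marker was above 0 (0.65). Of the 6 stellate markers, 3 had a log2 fold change above 0 and 3 below, with a median of -0.09. Only PDGFRB was called, lower in M, the direction of CYP7B1 (log2 fold change -1.11, adjusted p = 0.0473, limma). It stood at 0.407 to 3.01 FPKM in M and 2.86 to 6.22 FPKM in nM. PDGFRB was called in 11 of 12 cases with a library left out, the exception being M ZT5 (adjusted p = 0.108), but not with equal totals (adjusted p = 0.146). Muscle and adipose markers (2 of 7) summed to 3.59 to 7.51 FPKM in M and 0.586 to 430 FPKM in nM, and no red blood cell marker (0 of 8) had a symbol. Their part in the results was not tested.

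CYP7B1 was far lower in M livers. At ZT1 to ZT21 its level was 34.4, 14.2, 31.0, 14.1, 1.85 and 17.1 FPKM in M livers, against 127, 81.7, 110.0, 127, 116 and 104 FPKM in nM livers. Every M value lay below every nM value, which held for 3.40% of all genes, and the M bird was the lower one at 6 of 6 times, which held for 13.5%. The mean was 18.8 ± 12.0 FPKM in M and 111 ± 17 FPKM in nM (SD, n = 6 each), a ratio of 0.169. CYP7B1 was called lower, with a log2 fold change of -2.84 (SE 0.49, adjusted p = 0.0173, limma), as were 6.48% of all genes. With each library left out in turn it was called all 12 times, at -3.08 to -2.36, the smallest size being that without the M library of ZT17. The study lists CYP7B1 among the genes it called from these libraries, so this difference is not independent evidence. In whole liver, fewer cells of a type and less RNA per cell cannot be told apart, for this gene and for those that follow.

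Relative to its mean, CYP7B1 varied more across the M livers than across the nM livers. In FPKM itself the SD was the smaller one in M (12.0 against 17). In M livers the SD was 64.1% of the mean, and the highest value, at ZT1, was 18.6 times the lowest, at ZT17. Without ZT17 the M values still ran over 14.1 to 34.4 FPKM, with an SD of 44.0% of the mean. In nM livers the SD was 15.3% of the mean and the highest value was 1.56 times the lowest. The gap between M and nM was smallest at ZT9 (log2 difference -1.80) and ZT1 (-1.85) and widest at ZT17 (-5.36), where the M library is the one that stood apart. The difference in spread was not tested.

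AKR1D1 moved the other way and was the most abundant of the 4 genes, its mean level standing at the percentile of 95.8 among genes tested, against 79.3 to 83.1 for the other 3. At ZT1 to ZT21 it read 268, 662, 461, 211, 1918 and 463 FPKM in M livers, and 62.7, 406, 67.1, 101, 31.0 and 145 FPKM in nM livers. The M bird had the higher level at 6 of 6 times, as for 6.91% of all genes. The ranges overlapped, since the nM value at ZT5 exceeded the M values at ZT1 and ZT13, but 4 M livers lay above the highest nM liver and 5 nM livers below the lowest M liver. A full separation in this direction held for 0.784% of all genes and for none of the 4. Means were 664 ± 635 FPKM in M and 135 ± 138 FPKM in nM (SD, n = 6 each), and medians, which the ZT17 bird moves less, were 462 FPKM in M and 83.9 FPKM in nM.

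AKR1D1 was called higher in M, with a log2 fold change of 2.36 (SE 0.61, adjusted p = 0.051, limma), against 2.84% of all genes called in that direction. By linear regression without moderation its adjusted p was 0.0991, close to the threshold. Unlike CYP7B1, its symbol was found only among the genes that the study called cyclic, not among those it called between states. An exact two-sided permutation of the state labels gave an unadjusted p = 0.00866 over 924 splits. Without the M library of ZT17 the log2 fold change was 1.97 and the call remained (adjusted p = 0.0494). It was lost without M ZT5 (2.28, adjusted p = 0.118), without nM ZT9 (2.26, adjusted p = 0.101) or without nM ZT17 (2.04, adjusted p = 0.112), while the sign held in all 12 cases. The distance between states was least at ZT5, at a log2 difference of 0.70, since AKR1D1 was high in both birds of that hour, and greatest at ZT17, at 5.90, where the M series had its highest and the nM series its lowest value.

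**Figure D1:**
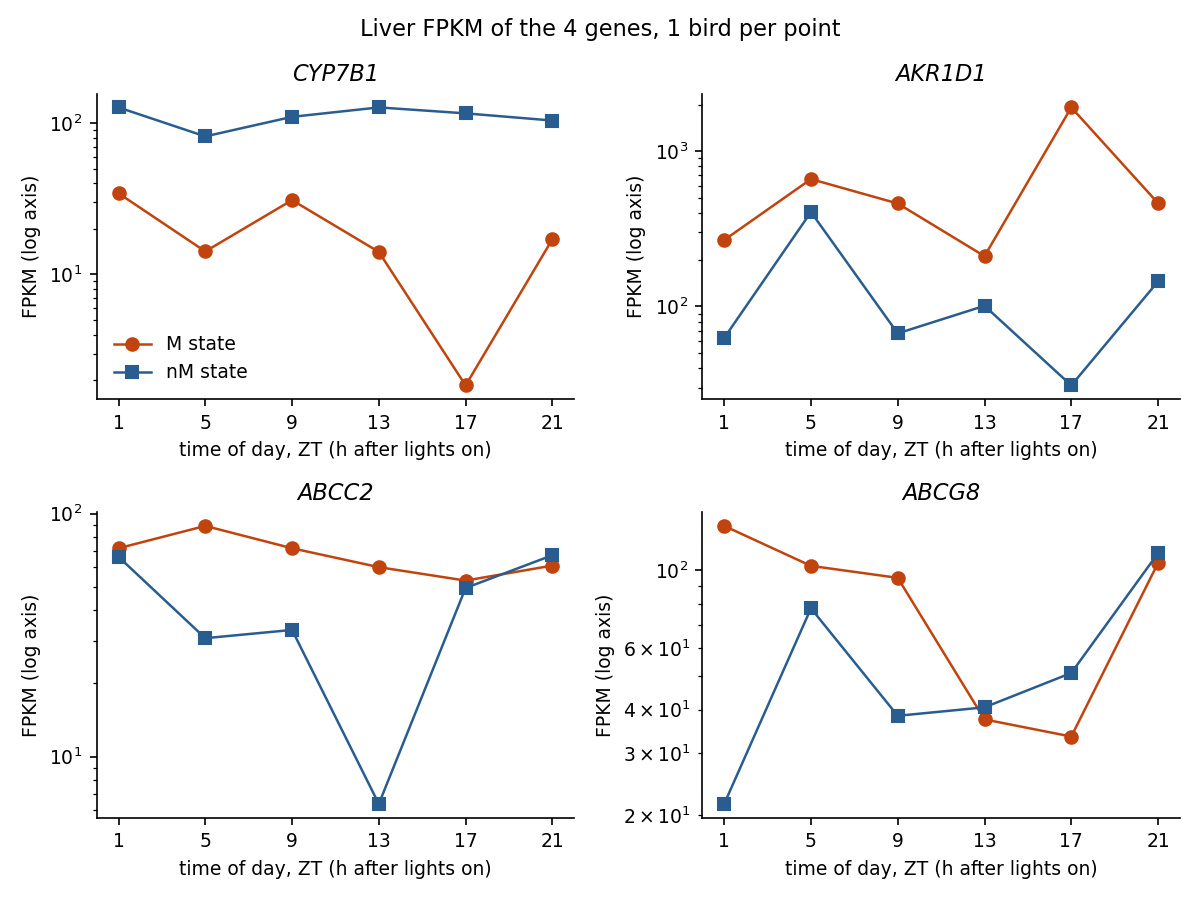
FPKM of CYP7B1, AKR1D1, ABCC2 and ABCG8 (log axis) against time of day in hours after lights on, 1 bird per point, with M as circles and nM as squares. The M points of CYP7B1 all lie below the nM points (34.4 FPKM at most against at least 81.7 FPKM), AKR1D1 is higher in M at each time, ABCC2 dips to 6.38 FPKM in the nM bird of ZT13, and the ABCG8 lines cross between ZT9 and ZT13.

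In mammals CYP7B1 and AKR1D1 both act in the alternative pathway, and AKR1D1 in the classic one as well. Their proportion within a library was also examined, a ratio chosen after their values were seen and given without a test. AKR1D1 exceeded CYP7B1 by 7.80 to 1039 times in M livers (median 21), and the ratio ran over 0.269 to 4.97 in nM livers (median 0.701). The lowest M ratio, at ZT1, thus lay above the highest nM ratio, at ZT5. Since AKR1D1 was higher and CYP7B1 lower in M at each time, this adds no evidence beyond that of the single genes. Without the M bird of ZT17 the log2 difference between states in this ratio was 4.41, against 5.37 with it. Over the 12 libraries the levels of CYP7B1 and AKR1D1 had a Spearman rho of -0.84, and of -0.79 without M ZT17, a description that includes the difference between states.

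In FPKM as deposited, ABCC2, the canalicular anion pump, ran over a narrow range in M livers and a wider one in nM livers. It measured 72.0, 89.0, 72.0, 60.2, 53.0 and 61.1 FPKM at ZT1 to ZT21 in M livers, and 66.4, 30.7, 33.2, 6.38, 49.4 and 67.4 FPKM in nM livers. The M values overlapped the nM values at ZT1 and ZT21, and the M bird was higher at 5 of 6 times. The mean was 67.9 ± 12.7 FPKM in M and 42.2 ± 23.5 FPKM in nM (SD, n = 6 each), so that the SD was 18.7% of the mean in M and 55.7% in nM. Without the nM bird of ZT13 the nM values ran over 30.7 to 67.4 FPKM with an SD of 35.4% of the mean. Without M ZT17 the M values ran over 60.2 to 89.0 FPKM with an SD of 16.4% of the mean. The FPKM total of M ZT17 was 3.425 times the median total, and the spread with equal totals was not examined. The difference in spread was not tested. The log2 fold change of 0.95 (SE 0.46, adjusted p = 0.207, limma) did not pass the threshold, and the exact two-sided permutation test gave an unadjusted p = 0.0455. The nM bird of ZT13, whose library held the muscle transcript, carried much of it, as without that library the log2 fold change was 0.50 (adjusted p = 0.283). Most of the distance between states fell at ZT5, ZT9 and ZT13 (log2 differences of 1.50, 1.09 and 3.05), while at ZT1, ZT17 and ZT21 it was 0.11, 0.10 and -0.14. With 1 bird per state at each hour, hour and bird cannot be told apart. A difference in daily course between states did not pass for ABCC2 in limma (unadjusted p = 0.102, adjusted p = 0.867).

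For ABCG8 the states were not distinguished. At ZT1 to ZT21 the gene stood at 134, 103, 95.2, 37.5, 33.5 and 105 FPKM in M livers, and at 21.5, 77.9, 38.4, 40.6, 50.9 and 112 FPKM in nM livers. The ranges overlapped almost wholly, and the M bird was the higher one at ZT1, ZT5 and ZT9 only. Means were 84.8 ± 40.4 FPKM in M and 56.9 ± 32.9 FPKM in nM (SD, n = 6 each). The log2 fold change was 0.58 (SE 0.44, adjusted p = 0.395, limma), with an exact two-sided permutation p = 0.258 before adjustment. Between the birds of each hour, 1 per state, the log2 difference was 2.59, 0.40 and 1.29 at ZT1, ZT5 and ZT9. At ZT13, ZT17 and ZT21 it was -0.11, -0.59 and -0.10. Hour and bird cannot be told apart here, and a difference in daily course between states did not pass in limma (unadjusted p = 0.213, adjusted p = 0.867).

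ABCG5, whose protein pairs with ABCG8, was not called between states either. It read 135, 46.0, 44.1, 40.1, 6.20 and 107 FPKM at ZT1 to ZT21 in M livers, and 72.0, 54.4, 43.0, 34.9, 58.6 and 123 FPKM in nM livers. Its log2 fold change was -0.39 (SE 0.58, adjusted p = 0.676, limma) and turned to 0.14 without M ZT17, the library with its lowest value. ABCG8 and ABCG5 went together across the 12 libraries (Spearman rho 0.66, and 0.64 without M ZT17). The ratio of ABCG8 to ABCG5 was 0.993, 2.24, 2.16, 0.935, 5.41 and 0.983 in M livers, and 0.299, 1.43, 0.892, 1.17, 0.868 and 0.914 in nM livers. It was higher in M at 5 of 6 times, by 1.01 on the log2 scale, which did not pass an exact two-sided permutation test (p = 0.0779), and by 0.68 without M ZT17 (exact p = 0.171). The ratio was chosen after its values were seen.

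**Figure D2:**
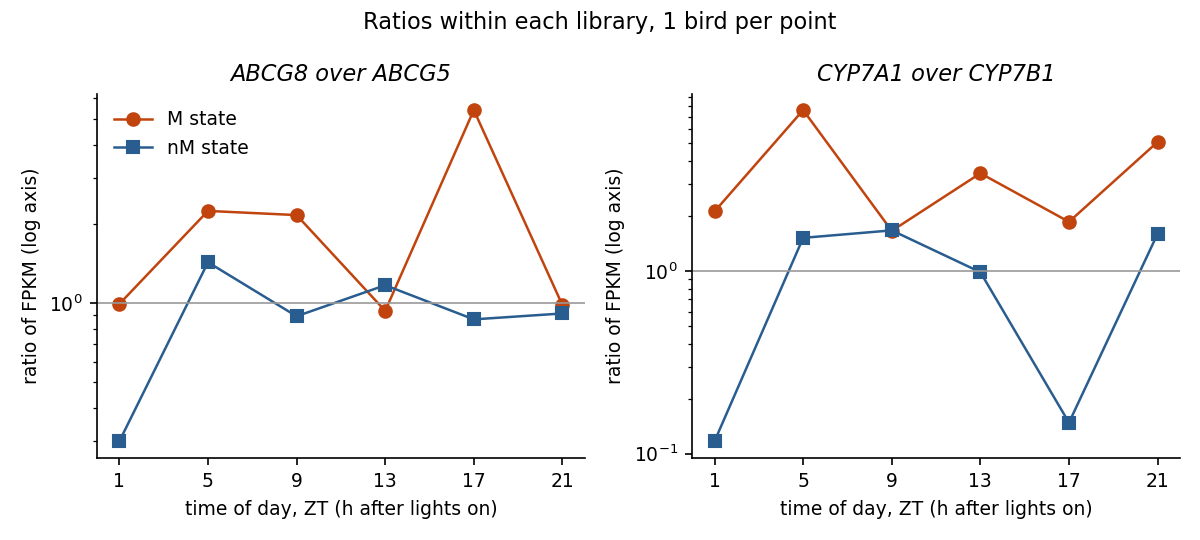
Ratio of FPKM within each library (log axis) against time of day in hours after lights on, ABCG8 over ABCG5 at left and CYP7A1 over CYP7B1 at right, 1 bird per point, with M as circles and nM as squares and a line at a ratio of 1. ABCG8 over ABCG5 peaks at 5.41 in the M bird of ZT17, and CYP7A1 over CYP7B1 is above 1 in every M bird and falls to 0.117 in the nM bird of ZT1 and 0.148 in that of ZT17.

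CYP7A1, the first enzyme of the classic pathway, was not called between states. Its level was 73.0, 108, 51.3, 48.3, 3.43 and 87.1 FPKM at ZT1 to ZT21 in M livers, against 14.9, 124, 183, 125, 17 and 166 FPKM in nM livers. The nM birds thus formed a low pair at ZT1 and ZT17 and a high set of 4 at the other hours, with the M birds other than that of ZT17 in between. The log2 fold change was -0.68 (SE 0.83, adjusted p = 0.606, limma) and came to -0.01 without M ZT17. CYP7A1 was 1.66 to 7.61 times CYP7B1 in M livers and 0.117 to 1.67 times in nM livers. The ratio of CYP7A1 to CYP7B1 was higher in M at 5 of 6 times, ZT9 being the exception. CYP7A1 itself was higher in M only at ZT1, so at the other hours a higher ratio restates the lower CYP7B1. This ratio was chosen after its values were seen and was not tested.

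None of the 4 genes passed a test of time of day after adjustment. For a 24-h cosine shared by both states, the fitted amplitudes on the log2 scale were 0.50 ± 0.34 for CYP7B1, 0.26 ± 0.46 for AKR1D1, 0.65 ± 0.29 for ABCC2 and 0.48 ± 0.30 for ABCG8 (± SE). The adjusted p-values in limma were 0.819, 0.961, 0.674 and 0.796 in the same order of genes, and 0.0523% of all genes were called. At an unadjusted p under 0.05, 8.24% of all genes passed and none of the 4 did. With each library left out in turn the amplitudes ranged over 0.05 to 0.73 for CYP7B1, 0.15 to 0.79 for AKR1D1, 0.26 to 0.79 for ABCC2 and 0.36 to 0.89 for ABCG8. The lowest amplitude of CYP7B1 and the highest of AKR1D1 were those without M ZT17, and the lowest of ABCC2 was that without nM ZT13. Without nM ZT1, ABCG8 had an unadjusted p = 0.00563 (adjusted p = 0.512, limma).

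Fitted separately, ABCG8 had its larger amplitude in M livers (0.99, highest at ZT2.7) and its smaller one in nM livers (0.27), as did CYP7B1 (1.16, highest at ZT4.6, in M and 0.15 in nM). ABCC2 and AKR1D1 had the reverse order, with ABCC2 at 0.33 in M and 1.22 in nM (highest at ZT23.4), and AKR1D1 at 0.47 in M and 0.93 in nM (highest at ZT4.5). With each library of a state left out in turn, an alternative added after seeing the data, these amplitudes ranged over 0.31 to 1.93 in M and 0.04 to 0.32 in nM for CYP7B1, 0.55 to 1.15 in M and 0.21 to 1.54 in nM for AKR1D1, 0.27 to 0.35 in M and 0.60 to 1.76 in nM for ABCC2, and 0.82 to 1.19 in M and 0.21 to 0.92 in nM for ABCG8. The lowest of CYP7B1 in M was that without M ZT17, the lowest of AKR1D1 in nM that without nM ZT5, the lowest of ABCC2 in nM that without nM ZT13, and the highest of ABCG8 in nM that without nM ZT1. The difference in daily course between states did not pass in limma, where its unadjusted p was 0.163 for CYP7B1, 0.345 for AKR1D1, 0.102 for ABCC2 and 0.213 for ABCG8, with an adjusted p of 0.867 for each. In limma 0% of all genes were called for such a difference, and 2.78% reached an unadjusted p under 0.05. A rank test against 24-h cosines within each state was exact over 720 orderings, with a smallest possible exact p of 0.0167. Of the 4 genes, this exact rank test gave its lowest p for ABCC2 in M livers (exact p = 0.0833, adjusted p = 0.993). For ABCC2 in M the exact rank test gave an exact p = 0.0167 with median-ratio scaling and 0.6 with equal totals. A cosine F test, which is not exact, gave ABCC2 in M an unadjusted p = 0.00923 (adjusted p = 0.88). The others had exact p-values of 0.2 to 0.967, and 1.44% of all genes in M and 2.80% in nM had an exact p under 0.05. Over all genes the smallest adjusted p of the rank test was 0.993 in M and 0.606 in nM. Its p cannot fall far enough for a gene to pass alone, so its adjusted p does not decide on a cycle. The symbols of all 4 genes, CYP7B1 included, stand in a list of genes that the study called cyclic in these libraries. These tests are therefore not independent of how the genes could be named.

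**Figure D3:**
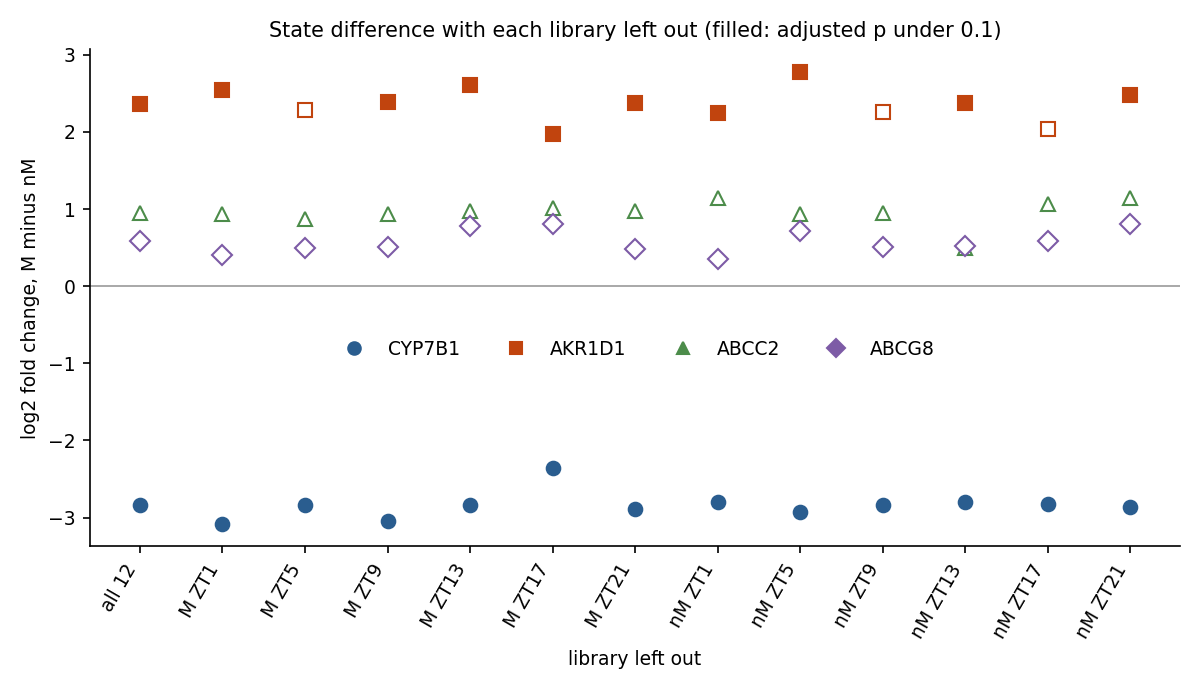
Log2 fold change, M minus nM, of CYP7B1, AKR1D1, ABCC2 and ABCG8 with all 12 libraries and with each library left out in turn, filled where the adjusted p was under 0.1 and open where it was not. CYP7B1 stays filled throughout at -3.08 to -2.36, AKR1D1 opens without M ZT5, nM ZT9 or nM ZT17, and ABCC2 drops to 0.50 without nM ZT13.

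The wider pathways were read from 108 genes written down in 5 lists, of which 49 had a symbol and 43 were tested, the 4 genes included. Of the 43, 3 were called higher and 3 lower in M, where 2.84% of all genes were called higher and 6.48% lower, and the symbols come from genes that the study called in these libraries. In bile acid synthesis (8 tested) AKR1D1 was the gene called higher and CYP7B1 the gene called lower, and the median log2 fold change was -0.72, against -0.08 over all genes. CYP27A1, which starts the alternative pathway, averaged 495 ± 381 FPKM in M and 266 ± 165 FPKM in nM without passing the test (0.76, SE 0.46, adjusted p = 0.295, limma), and stood at 0.45 without M ZT17. CYP46A1, a sterol hydroxylase known from mammalian brain, stood at -0.94 (SE 0.36, adjusted p = 0.134) and was the gene of this list with the highest mean level. It was called without M ZT1 (-1.10, adjusted p = 0.0658) and, at a smaller size, without M ZT17 (-0.61, adjusted p = 0.0962).

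Among genes of bile salt and organic anion transport (7 tested, median -0.11), SLCO1B1 was called higher. SLCO1B1 encodes a carrier that in mammals takes organic anions out of the blood into the liver cell, at the opposite face from ABCC2. It was 515 to 2864 FPKM in M livers (median 957) and 214 to 709 FPKM in nM livers (median 394), with overlapping ranges. Its log2 fold change was 1.51 (SE 0.45, adjusted p = 0.0747), and the call was lost in 8 of 12 cases when a library was left out, being kept without M ZT1, M ZT13, M ZT17 or nM ZT5. ABCG2, another canalicular pump, differed by -0.33 on the log2 scale (adjusted p = 0.628), and by -0.05 without M ZT17.

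No gene of sterol efflux, uptake and esterification (8 tested, median -0.07) or of cholesterol synthesis (10 tested, median -0.22) was called by limma. At an unadjusted p under 0.05 in limma, 0 of the first and 1 of the second passed, against 2414 of the 9566 genes tested. CETP, a plasma carrier of cholesteryl esters, differed by 1.07 on the log2 scale (adjusted p = 0.203), and APOB, the structural protein of secreted lipoproteins, of -0.58 (adjusted p = 0.394). LIPA, the lysosomal acid lipase, had -0.85 (adjusted p = 0.315). HMGCS1, an early enzyme of cholesterol synthesis, had -1.49 (SE 0.85, adjusted p = 0.278), SC4MOL -0.38 (adjusted p = 0.536) and ACAT2 0.19 (adjusted p = 0.738). Without M ZT17 the log2 fold changes were -0.21 for APOB, -0.26 for LIPA, -0.13 for SC4MOL and -0.10 for ACAT2.

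Among regulators (10 tested, median -0.44), KLB and PROX1 were called lower and FGFR4 higher. FGFR4 and KLB form, in mammals, the receptor through which the gut hormone FGF19 represses bile acid synthesis, and they were called in opposite directions. KLB averaged 7.51 ± 4.46 FPKM in M and 20.2 ± 8.81 FPKM in nM (-1.45, SE 0.43, adjusted p = 0.0732). FGFR4 averaged 42.9 ± 15.8 FPKM in M and 21.4 ± 14.2 FPKM in nM (1.07, SE 0.35, adjusted p = 0.0958).

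PROX1, a nuclear factor that represses CYP7A1 in mammals, averaged 3.63 ± 1.86 FPKM in M and 9.05 ± 4.54 FPKM in nM (-1.09, SE 0.34, adjusted p = 0.0878). The calls were lost without 9 of the 12 libraries in turn for KLB (kept without M ZT1, M ZT17 or nM ZT5), 10 for FGFR4 (kept without M ZT1 or nM ZT5) and 8 for PROX1 (kept without M ZT1, M ZT9, M ZT17 or nM ZT13). With libraries scaled to equal totals none of SLCO1B1, KLB, FGFR4 and PROX1 was called, whereas CYP7B1 and AKR1D1 still were. PPARA, INSIG2 and RXRA, the regulators with the highest levels, had log2 fold changes of -0.14, -1.01 and 0.93 and were not called (adjusted p = 0.852, 0.105 and 0.192). INSIG2 was called without M ZT1 (-1.12), M ZT17 (-0.73) or nM ZT5 (-1.06), and RXRA stood at 0.56 without M ZT17.

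**Figure D4:**
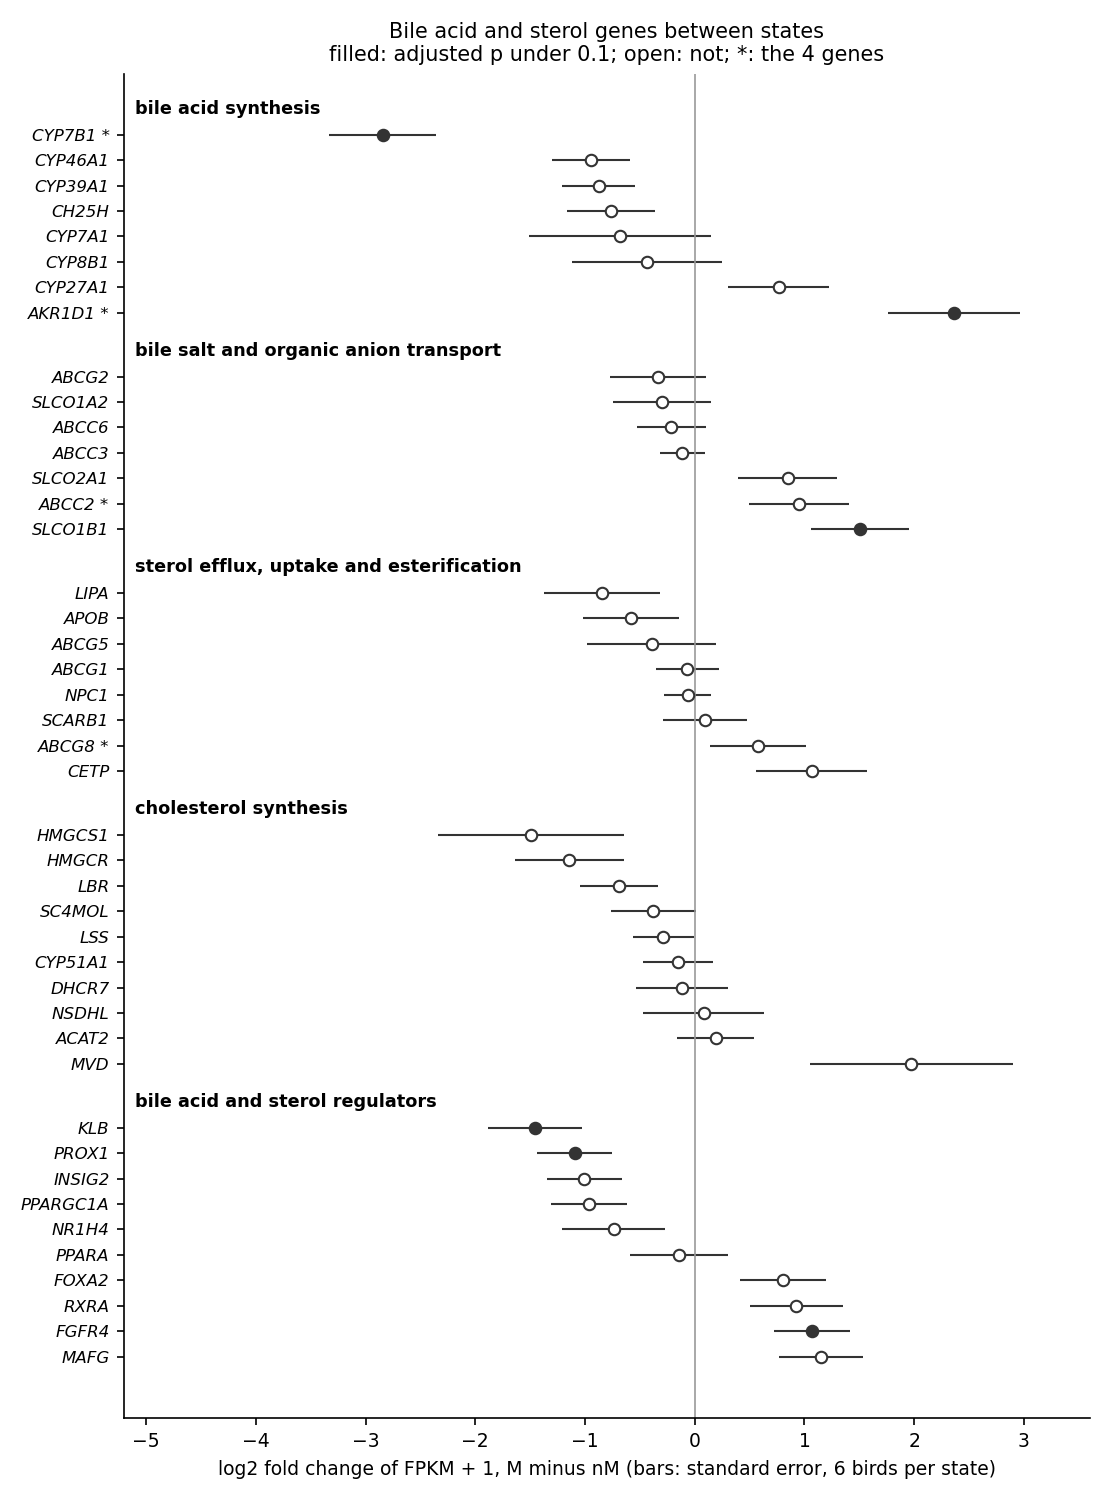
Log2 fold change of FPKM + 1, M minus nM, with its standard error for the 43 tested genes of 5 pathway lists (6 birds per state), ordered within each list, with a star on CYP7B1, AKR1D1, ABCC2 and ABCG8. Filled points had an adjusted p under 0.1: CYP7B1 (-2.84), KLB and PROX1 on the lower side, and AKR1D1 (2.36), SLCO1B1 and FGFR4 on the higher side.

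The genes most like each of the 4 were sought by Spearman rho of FPKM over the 12 libraries among the 4095 tested genes with a symbol, as a description in which the points share libraries and states. CYP7B1 ran closest to WWC3 (rho 0.986), TNKS2 (0.979) and ZBTB41 (0.965), against a median of 0.112 and a 99th percentile of 0.916 over all genes. AKR1D1 ran closest to ALAS1, the first enzyme of heme synthesis, and to APPBP2 and USP14 (0.979 each, against a median of -0.154 and a 99th percentile of 0.916). ABCC2 had its closest genes at lower values, EPHA5 at 0.888, AKR1B10-2 at 0.853 and ARSD-1 at 0.811 (median 0.007, 99th percentile 0.626). ABCG8 was closest to TRIM14 (0.923), TMEM165 (0.909) and CYP2C8-2, a drug-metabolising cytochrome (0.839, median -0.042, 99th percentile 0.646).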

How the data were processed

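Poly-A RNA of 12 bunting livers (6 M, 6 nM) was extracted in a single batch and sequenced in a single lane. The authors trimmed reads, checked them with FastQC, removed ribosomal reads with Bowtie2 (version 2.0.2), mapped what remained with STAR against zebra finch, and used Cufflinks (version 2.2.1) to estimate FPKM. The deposited FPKM table held 18284 genes, and the deposited log2 table held 11246 of them. Its 134952 values equalled log2(FPKM + 1) within 1e-06, with no scaling between libraries. The study lists the reads of each library, which are used here only to name the shallowest one. FPKM is already scaled by mapped reads and whole reads could not be recovered from it, so no counting interval is given. An exact 0 may be a failed estimate.

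The 9566 genes that exceeded 0.1 FPKM in 10 or more libraries were tested on log2(FPKM + 1), which understates changes of low genes, by limma (version 3.58.1, R 4.3.3) with Benjamini-Hochberg adjustment, with the 6 times standing as replicates, after the study. Rhythm tests added 24-h cosine and sine terms, and a rank statistic was taken within states at 12 phases. Exact permutation tests and Spearman rho used Python 3.11.15 with scipy 1.17.1. The fit was checked on simulated data. Symbols came from the study's lists of called genes, whose fold changes and p-values were not used. No reference sequence was used. Named beside the 4 genes were every listed pathway gene called, CYP7A1 and ABCG5 as partners, the 3 most abundant genes of each list, and the 3 genes most like each member. The genes and lists were chosen with earlier results of these data known. Alternatives were a pseudocount of 0.1, no filter, scaling to equal totals or by median ratios, regression without moderation, cosine covariates, time of day as a replicate block, a cosine F test, and each library left out.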

Additional observations from a re-analysis of the deposited data

Results flagged for a closer look

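On the FPKM scale AKR1D1 had a bird that stood apart in each state. In M livers the ZT17 value of 1918 FPKM lay far above the others (211 to 662 FPKM), its gap to the next being 0.736 of the whole range, and this is the library with the aberrant FPKM total. In nM livers the ZT5 value of 406 FPKM lay above the rest (31.0 to 145 FPKM), with a gap of 0.696 of the range. Dixon's 95% criterion was applied to FPKM in 12 groups of 6 libraries (the 4 genes, CYP7A1 and ABCG5 in each state), and 2 passed it. The criterion assumes normally spread values, for which chance gives about 5% of groups, and this was not checked. It was not applied on the log2 scale that limma used. Low values, such as CYP7B1 at 1.85 FPKM in M ZT17, weigh more on that scale, so which birds pass may depend on the scale.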

How the results depend on the processing

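CYP7B1 kept its direction and its call under every alternative tried, and AKR1D1 its direction, with its log2 fold change at 1.97 to 2.78 when each library was left out. ABCC2 and ABCG8 kept their directions and no adjusted p of theirs was under 0.1. ABCC2, at 0.95, had an unadjusted p under 0.05 in the exact permutation test and in some limma settings, such as the block (p = 0.0485) and cosine covariates (p = 0.0394). In limma, however, 2535 of 9566 genes had an unadjusted p under 0.05 with the block and 2426 with cosine covariates. The number of genes called between states was 295 with equal totals and 200 to 1979 when each library was left out, against 892. For the shared rhythm it was 2 without a filter, 3 with equal totals, 1 without moderation and 2 to 37 with each library left out, against 5. For a cycle within a state, genes at an unadjusted p under 0.05 numbered 59 (equal totals) and 295 (F test) in M, against 138. In nM such genes numbered 176 and 702, against 268. In none of these settings did a gene have an adjusted p under 0.05. Signs turned, in uncalled genes, for ACAT2 (leave-one-out -0.10 to 0.34), PPARA (-0.38 to 0.14) and ABCG5 (-0.71 to 0.14). With M ZT17 and nM ZT13 both omitted, a setting chosen after seeing the data, ACAT2 was at -0.21, CYP7A1 at 0.15, and 12 genes were called for the shared rhythm. The cause of these changes was not tested. Same-hour birds of the 2 states are not the same animals, and their deviations correlated at 0.026 to 0.475, with 3 of 6 pairs over 0.1 and 2 of 6 M libraries closest to their own hour. With time of day as a replicate block 928 genes were called, CYP7B1 (adjusted p = 0.0373) and AKR1D1 (adjusted p = 0.0781) were called, and ABCC2 and ABCG8 were not (adjusted p = 0.187 and 0.359, limma). What depth limits was not tested.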

Other observations

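HMGCS1, at the head of cholesterol synthesis, was high in 3 nM birds, at 5057, 3627 and 2127 FPKM at ZT1, ZT17 and ZT21, against 149 to 778 FPKM in all 6 M birds and 106 to 413 FPKM in the other 3 nM birds. The limma test of a rhythm that differs between states gave an unadjusted p = 0.0235 and an adjusted p = 0.867. PPARA, INSIG2 and APOB also had an unadjusted p under 0.05 in this limma test, with an adjusted p = 0.867 each. In all, 4 of the 43 pathway genes did so, against 2.78% of all genes, and none passed after adjustment. At an unadjusted p under 0.05, 5 of the 43 pathway genes had a rhythm shared by both states (CYP8B1, SCARB1, CETP, NR1H4 and NSDHL, named after their values were seen), against 8.24% of all genes, and none passed after adjustment in limma. These 43 could be named only because the study called them cyclic or different in these libraries, so neither share is a fair comparison with all genes. CYP8B1, the sterol 12-alpha-hydroxylase that sets the mix of bile acids, ran at 13.4, 4.35, 2.37, 4.96, 19.0 and 12.6 FPKM at ZT1 to ZT21 in M livers, and at 57.2, 6.65, 1.71, 3.98, 20.8 and 18.6 FPKM in nM livers. It was lowest at ZT9 in both states.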
